A study of Drosophila melanogaster with 4 samples.

Results

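The genes described here are 8 genes of the fly photoreceptor: Galphaq, trpl, inaD, inaC, Arr1, rdgC, rtp and chp. They were chosen by name, as every spot whose single gene symbol in the probe annotation is a listed photoreceptor gene and whose clone had a value on at least 3 of 4 arrays. They are 8 of the 524 genes tested by name, and they are represented by 9 of 1030 tested clones, since Galphaq has 2 clones. Gene expression was compared between heads of adult male Drosophila melanogaster given food with sodium valproate (NaVP) and heads of males given normal food. NaVP is an antiepileptic drug and mood stabiliser that also inhibits histone deacetylases. All flies were unmated Oregon-R wild type males aged 10 to 11 days, kept at 30 per vial, and treatment meant 3 days on food with 0.33 mg/ml of the drug. Each of the 4 two-colour cDNA arrays set a pool of treated heads against a pool of control heads and counted as 1 biological replicate. NaVP RNA was labelled with Cy5 on arrays 1 and 2 and with Cy3 on arrays 3 and 4, the swap arrays.

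Photoreceptor cells turn light into an electrical signal in the rhabdomere, a stack of microvilli packed with rhodopsin. Activated rhodopsin engages a Gq protein, which switches on a phospholipase C, and the breakdown of phosphoinositides opens the cation channels TRP and TRPL. Many of these proteins are held together by the scaffold INAD, and the signal is ended by arrestins, by an eye-specific protein kinase C and by a rhodopsin phosphatase. A fly head holds the large compound eyes beside the brain, fat body, muscle and antennae. In RNA from whole heads, a lower share of photoreceptor cells and less RNA per photoreceptor cannot be told apart.

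The files hold a log ratio for each spot and array, read here as log2. The base is not stated, so every fold depends on that choice. Of 27648 spots, between 1322 and 5225 carried a value on an array. Adjacent spots of a clone were averaged and each array was centred on its median, which lay between 0.24 and 1.05 before centring. The order of the dyes in the ratio is not stated either, so results are given under both readings. If the values are Cy5 over Cy3, the sign of the swap arrays has to be turned. The labels list Cy5 first on every array, but they do not state whether the authors had already turned the swap arrays. If the authors had already turned them, the signs stand as deposited. For clones on all 4 arrays, the mean of one reading is the dye effect of the other. For the second Galphaq clone and rdgC, which lack array 3, either mean mixes treatment and dye. Arrays 1 and 2 count as treated over control in either case. The titles name normal food first, and with ratios of that direction all signs given here would flip. Over the 453 clones on all 4 arrays, Pearson's r was 0.56 between arrays 1 and 2, 0.35 between arrays 3 and 4, and from -0.12 to 0.28 between arrays of opposite orientation.

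No member clone passed the threshold under either reading (limma, two-sided, Benjamini-Hochberg adjusted p under 0.05 over all 1030 clones). In the turned reading 0 of 9 member clones were called, where 0.0971% of all tested clones were, and the members' adjusted p ran from 0.737 to 0.994. As deposited, 0 of 9 were called, where 0.777% of all tested clones were, and the adjusted p ran from 0.244 to 0.956. A fit with a second coefficient for dye orientation called 0 of 9 members in either reading, where it called 3.11% of all tested clones turned and 5.73% as deposited. Without centring, 8 of 9 were called as deposited, as were 72.3% of all tested clones, because the test then measures the offset of the arrays. The limma 95% intervals given here are those of the fit without a dye coefficient, and they show the size of change which that fit allows. Turned, the 9 intervals lay between 0.618-fold and 1.43-fold. As deposited they lay between 0.620-fold and 1.53-fold. These intervals are not adjusted over clones, and they draw on a spread pooled over all clones as well as on the clone's own arrays.

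**Figure D1:**
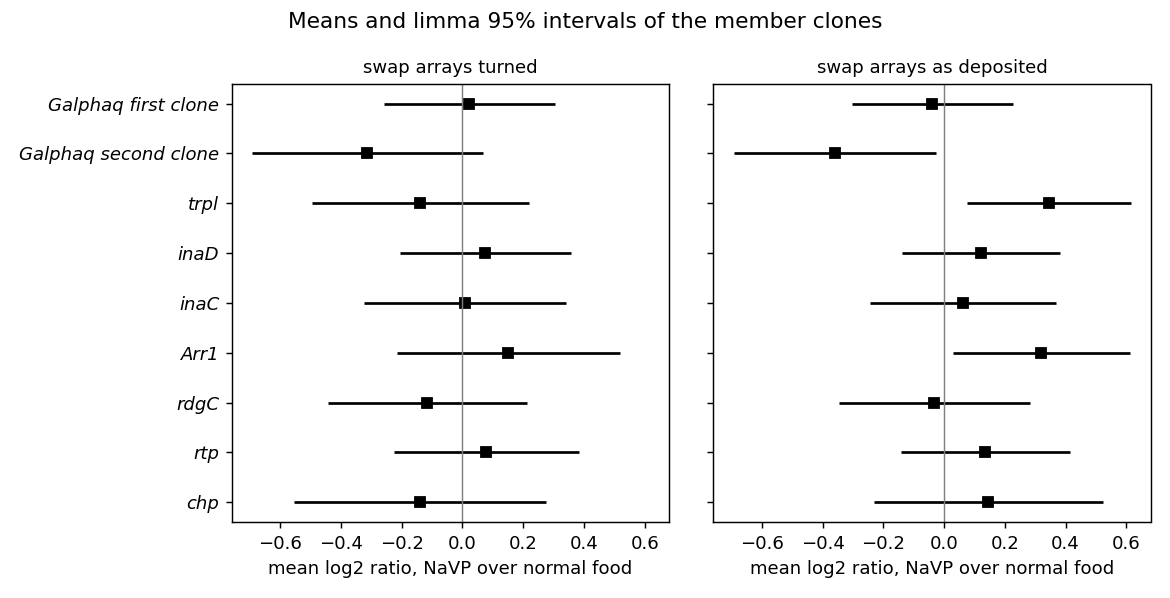
Mean log2 ratio of NaVP over normal food (squares) and limma 95% interval (bars) for the 9 member clones, turned (left) and as deposited (right). Every interval on the left spans 0; on the right those of the second Galphaq clone, trpl and Arr1 do not, although none of these passed after adjustment.

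The plot of intervals lists the clones in the order of the cascade. By mean, the order in the turned reading was Arr1, rtp, inaD, the first Galphaq clone, inaC, rdgC, trpl, chp and the second Galphaq clone, from 0.15 to -0.31. No neighbours in that order were further apart than 0.17, while the SDs between arrays ran from 0.072 to 0.54. As deposited the order was trpl, Arr1, chp, rtp, inaD, inaC, rdgC and the clones of Galphaq, from 0.34 to -0.36. There only the step of 0.32 between the clones of Galphaq was wider than the SD of both neighbours.

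Galphaq encodes the alpha subunit of the Gq protein that couples rhodopsin to phospholipase C. Its first clone had centred log2 ratios, with signs as deposited, of -0.0325, 0.0015, -0.26 and 0.13 on arrays 1 to 4. These values lie on both sides of 0 within each dye orientation. The mean was 0.023 ± 0.17 turned and -0.038 ± 0.16 as deposited (SD, n = 4; limma adjusted p = 0.982 and 0.928). Its second clone gave -0.54 on array 1, -0.46 on array 2 and -0.067 on array 4, and array 3 listed no value. The low values are those of arrays 1 and 2, on which both readings count the sign the same way. The mean was -0.31 ± 0.33 with the swap array turned and -0.36 ± 0.26 as deposited (SD, n = 3; limma adjusted p = 0.737 and 0.322). The second clone thus lay below the first by 0.51, 0.47 and 0.20 on the 3 arrays that measured both, with signs as deposited. This gap was not tested, and which part of the gene each clone carries is not given in the sources used here. With both clones averaged, and array 3 resting on the first alone, Galphaq had a mean of -0.074 ± 0.25 turned and -0.19 ± 0.15 as deposited (SD, n = 4; limma adjusted p = 0.919 and 0.548).

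The channel gene trpl encodes TRPL, which opens together with TRP in the light response and leaves the rhabdomere during long light exposure. Its centred log2 ratios were 0.10, 0.31, 0.54 and 0.43 on arrays 1 to 4, all above 0 with signs as deposited. It was the 1 member clone of 7 with 4 values that kept its sign on all 4 arrays as deposited, where 26.3% of the 453 such clones did and 20.5% were above 0 throughout. In that reading the mean was 0.34 ± 0.19 (SD, n = 4), a 1.27-fold ratio with an interval from 1.05 to 1.53, and it ranked 68 of 1030 by p. It did not pass over all clones (limma adjusted p = 0.244). With the dye coefficient its limma adjusted p was 0.0647. Turned, the arrays disagreed in sign, as they did for all 7 such members where 17.4% of the 453 clones kept 1 sign, and the mean was -0.14 ± 0.41 (SD, n = 4; limma adjusted p = 0.874). The means of trpl in the 2 readings lay 0.48 apart, the widest such gap among the 9 member clones.

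inaD encodes the PDZ-domain scaffold that binds TRP, phospholipase C and the eye protein kinase C. Its ratios were 0.18, 0.22, 0.15 and -0.054 on arrays 1 to 4. This was the narrowest spread among the members on all 4 arrays, with a range of 0.27 that exceeded that of 11.7% of the 453 clones. The mean was 0.075 ± 0.16 turned and 0.12 ± 0.12 as deposited (SD, n = 4; limma adjusted p = 0.931 and 0.668). inaC encodes the eye-specific protein kinase C that INAD holds near the channels and that helps to end the light response. Its ratios were 0.39 and -0.25 on arrays 1 and 2, and -0.20 and 0.31 on arrays 3 and 4. High and low arrays occurred in both dye orientations, and the means were 0.0087 ± 0.34 and 0.061 ± 0.33 (SD, n = 4; limma adjusted p = 0.994 and 0.886), turned and as deposited. inaD and inaC lay on opposite sides of the array median on arrays 2, 3 and 4, with inaD the higher on arrays 2 and 3 and inaC on array 4.

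Arr1 encodes arrestin 1, which binds light-activated rhodopsin. Its ratios were 0.66, 0.29, 0.38 and -0.037 on arrays 1 to 4, with array 4 the only array below 0. On array 1 its duplicate spots read 0.98 and 0.33, a difference wider than that of 90.5% of spot pairs on that array. The mean as deposited was 0.32 ± 0.28 (SD, n = 4), a 1.25-fold ratio with an interval from 1.02 to 1.53 (limma adjusted p = 0.311). That mean was 0.21 without array 1, 0.19 with array values of discordant duplicate spots left out and 0.17 with each array centred by block. Turned, it was 0.15 ± 0.43 (SD, n = 4; limma adjusted p = 0.873). That direction rests on array 1: without it the turned mean was -0.016, and leaving out array values with discordant duplicate spots, which drops the same array 1 value, gave -0.012. rdgC encodes the calcium-regulated phosphatase that removes phosphate from rhodopsin. It read -0.18 and -0.039 on arrays 1 and 2 and 0.13 on array 4, with no value on array 3. With array 4 turned, all 3 values lie below 0, and the mean was -0.12 ± 0.072 (SD, n = 3; limma adjusted p = 0.876). As deposited the mean was -0.032 ± 0.15 (SD, n = 3; limma adjusted p = 0.956).

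rtp encodes retinophilin, a protein with MORN repeats that partners with the photoreceptor myosin NINAC. Its ratios were 0.44, -0.016, 0.16 and -0.041 on arrays 1 to 4, so that array 1 stood above the others. The mean was 0.079 ± 0.26 turned and 0.14 ± 0.22 as deposited (SD, n = 4; limma adjusted p = 0.931 and 0.661). As deposited, the mean of rtp was 0.033 without array 1 and 0.30 with block centring, and turned it was -0.043 without array 1. chp encodes chaoptin, a cell-surface adhesion protein with leucine-rich repeats that holds the microvilli of the rhabdomere together. Its ratios were 0.31 and -0.30 on arrays 1 and 2, and 0.83 and -0.26 on arrays 3 and 4. Arrays 1 and 3 were thus high and arrays 2 and 4 low, a split that crosses the dye orientation. The mean was -0.14 ± 0.54 turned and 0.15 ± 0.54 as deposited (SD, n = 4; limma adjusted p = 0.892 and 0.737). Array 3 decides both directions: without it the means were 0.092 and -0.084.

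**Figure D2:**
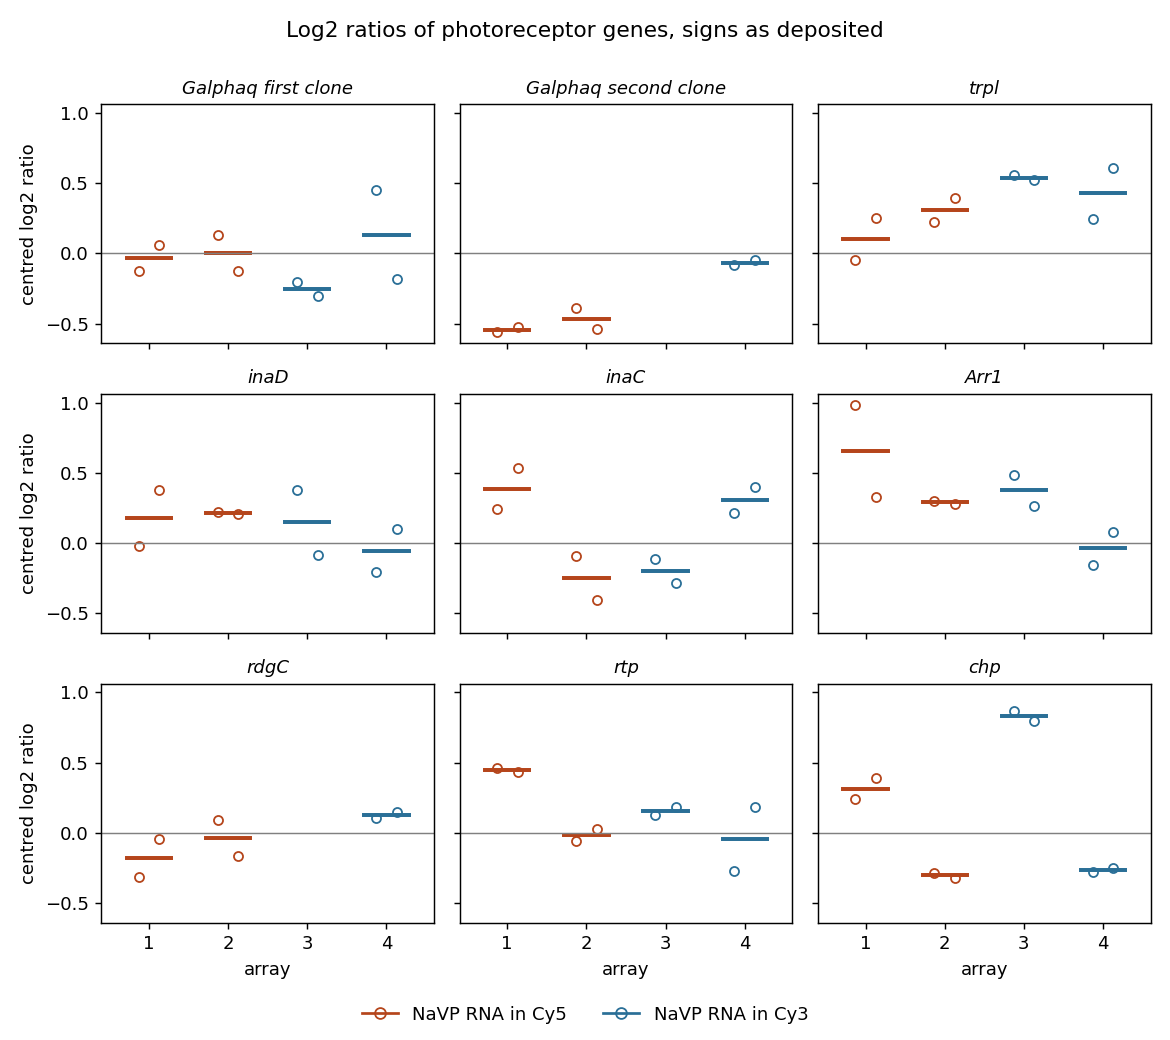
Centred log2 ratios of the 9 member clones on arrays 1 to 4, with signs as deposited; open circles are the duplicate spots, bars their mean, and colour gives the dye of the NaVP RNA. The bars of trpl lie above 0 on all 4 arrays, while those of chp alternate between 0.31 and 0.83 on arrays 1 and 3 and -0.30 and -0.26 on arrays 2 and 4.

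The plot of spots by array shows how closely duplicate spots repeated each other. For chp they differed by 0.15, 0.032, 0.065 and 0.025 on arrays 1 to 4, while its clone means spanned 1.14 over the arrays. For the first Galphaq clone on array 4 the spots read 0.45 and -0.18, wider apart than 96.1% of pairs on that array. That difference was 0.64, and the clone means spanned 0.39 over the 4 arrays.

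**Figure D3:**
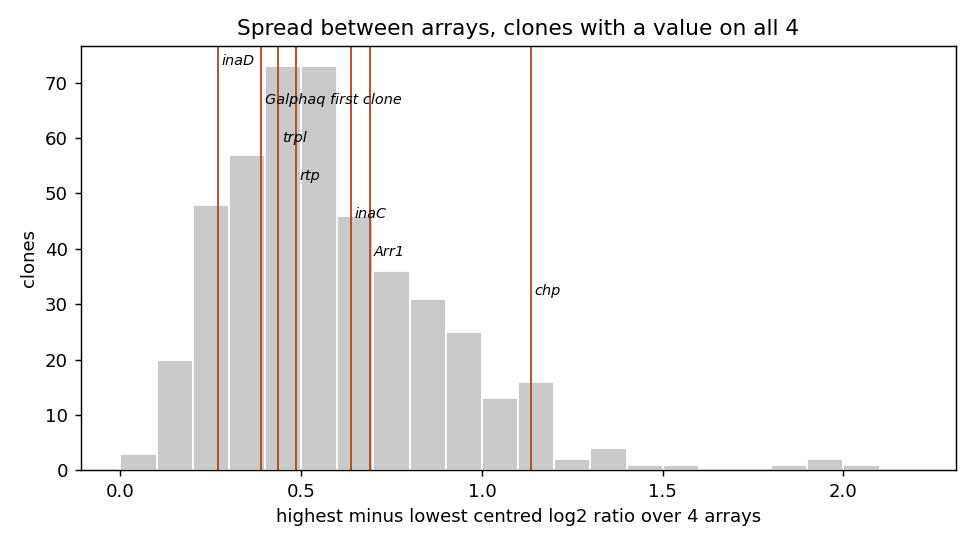
Histogram of the highest minus the lowest centred log2 ratio, signs as deposited, over the 453 clones with a value on all 4 arrays; vertical lines mark the 7 member clones among them. The range of chp, 1.14, is wider than that of 94.5% of the clones, and the other 6 lie between 0.27 and 0.69.

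The histogram of ranges places the members among all clones measured on 4 arrays, whose median range was 0.54. Ranges of inaD, the first Galphaq clone, trpl and rtp fell below that median. Those of inaC, Arr1 and chp lay above it.

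The members as a group lay near the tested clones in general, with no test of the group. In the turned reading 5 of 9 member clones had a mean above 0, where 47.6% of all tested clones did, and their median was 0.0087 against -0.0094 over all tested clones. As deposited, 6 of 9 had a mean above 0, where 60% of all tested clones did, and the medians were 0.12 and 0.050. At an unadjusted limma p under 0.05, 0 of 9 members stood out in the turned reading, where 6.89% of all tested clones did. As deposited there were 3, namely trpl and Arr1 on the high side and the second Galphaq clone on the low side, where 14.1% of all tested clones were past that level (9.32% higher and 4.76% lower). That count was 1 without array 1, array 2 or array 3, and 2 without array 4. The 3 clones do not move one way.

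**Figure D4:**
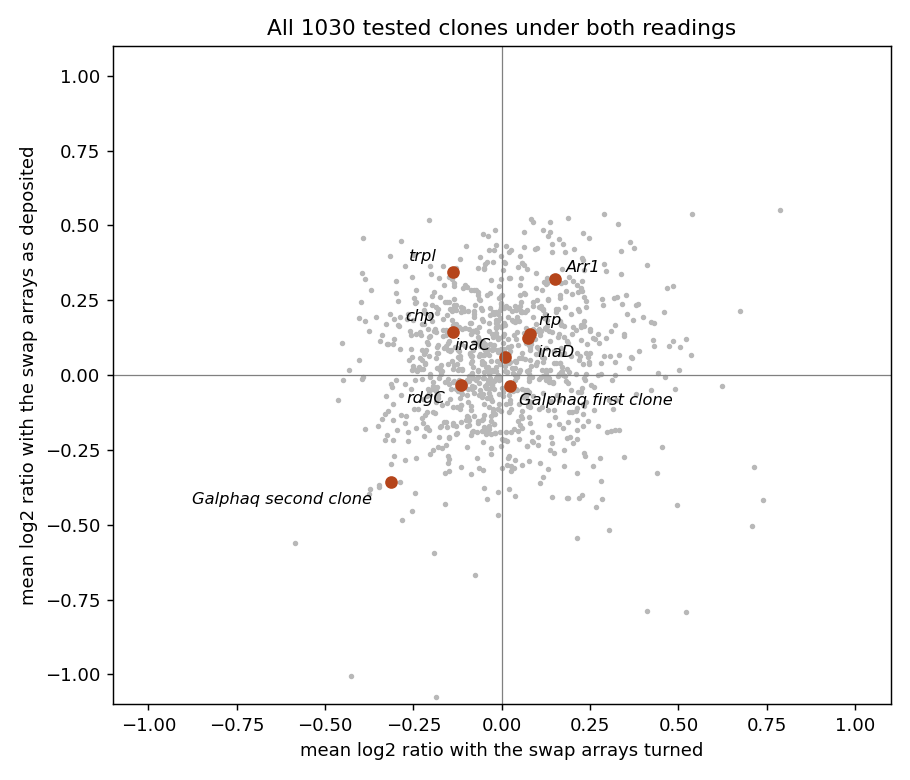
Mean log2 ratio of each of the 1030 tested clones (grey) in the turned (horizontal) and the deposited reading (vertical); the 9 member clones are in colour, and 6 clones lie outside the plotted range. The members lie within the cloud of tested clones, with trpl and Arr1 near 0.34 and 0.32 on the vertical axis and the second Galphaq clone lowest on both axes among the members.

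The scatter of both readings places trpl at 0.34 on the vertical and -0.14 on the horizontal axis. Array by array, 6 of 9 member clones lay above the array median on array 1, 4 of 9 on array 2, 5 of 7 on array 3 and 4 of 9 on array 4, with signs as deposited. Among all tested clones the share above the median ran from 55.4% to 58.1%. The members' median was 0.18, -0.016, 0.16 and -0.037 on arrays 1 to 4. It was higher on arrays 1 and 3 than on arrays 2 and 4, the split seen for chp, Arr1 and rtp. The first Galphaq clone, trpl, inaD and inaC did not show that split. The median on array 3 also leaves out the second Galphaq clone and rdgC, which had no value there.

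For the 7 members on all 4 arrays, the clones of closest pattern were sought by the root mean square difference of the 4 centred ratios among 223 other named clones on 4 arrays. This measure over 4 arrays is a description and includes the dye and array offsets that clones share. None of the 3 closest clones of any member was another member. The 7 members are a small share of the clones compared, so this is not a result about them. The closest to trpl was Npc2a, which encodes a sterol-binding protein, at a difference of 0.10, followed by Not3 and CG11147. The closest to chp was Gad1, glutamic acid decarboxylase of GABA synthesis, at 0.19, followed by Ric and Nplp1. The closest to inaD was Vha44, a subunit of the vacuolar proton pump, at 0.050, followed by Gabat and Ifrd1. For rtp they were CG3662, at 0.069, Gapdh1 and Nipsnap, and for Arr1 they were Sfxn1-3, at 0.13, CG3662 and CG2082. CG3662 thus stood close to both rtp and Arr1. The first Galphaq clone was closest to CG1275, at 0.050, then Tango9 and Pu, and inaC was closest to Mlf, at 0.078, then Pect and CG10433.

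Little else of the phototransduction cascade was measured. Of 30 other genes of the cascade, 7 have a clone named in the annotation and 3 had a value on any array. No value was listed on any of the 4 arrays for trp, the main light-activated channel, Arr2, the other arrestin, rdgA, a diacylglycerol kinase, or rdgB, a phosphatidylinositol transfer protein. A spot without a value may have been dropped by the authors' filters, so this says nothing about expression. On array 1 alone, Rh7, an opsin gene, read 0.40 and laza, a lipid phosphatase gene of the photoreceptor, read 0.69. Only Pis, phosphatidylinositol synthase, which remakes the lipid that the cascade consumes, was tested. It read 0.15, -0.23, 0.021 and 0.40 on arrays 1 to 4, on both sides of 0 within arrays 1 and 2. Its mean was -0.12 ± 0.24 turned and 0.084 ± 0.26 as deposited (SD, n = 4; limma adjusted p = 0.873 and 0.806). Of 8 genes of chromophore supply and 8 of rhabdomere build and photoreceptor fate, 0 had a value on 3 arrays.

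Photoreceptors signal to the brain with histamine, and 2 of 14 genes of that step were tested. Hdc, histidine decarboxylase, which makes histamine, read 0.31, 0.26, -0.0035 and 0.70 on arrays 1 to 4. As deposited its mean was 0.32 ± 0.29 (SD, n = 4; limma adjusted p = 0.322), of the same size as that of Arr1, and turned it was -0.031 ± 0.46 (SD, n = 4; limma adjusted p = 0.982). The gene tan, t, whose hydrolase frees histamine from its carrier carcinine, read 0.11, -0.067, 0.25 and 0.46, with a mean of -0.17 ± 0.24 turned and 0.19 ± 0.22 as deposited (SD, n = 4; limma adjusted p = 0.796 and 0.533). Of 20 genes of eye pigment and lens only Pu, GTP cyclohydrolase of pteridine synthesis, was tested, and it stood near 0 in both readings (-0.0093 ± 0.15 turned and -0.00019 ± 0.15 as deposited, SD, n = 4; limma adjusted p = 0.994 and 0.999).

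Other cell types of the head are represented by few tested genes. Of 13 genes listed as neuronal, 3 were tested and 0 called. This list shares genes with that of histamine transmission, but none of the shared genes was tested. Whether the 3 tested genes set other neurons apart from photoreceptors was not tested. In the turned reading Gad1 had -0.18 ± 0.44 and the potassium channel gene Sh -0.16 ± 0.25 (SD, n = 4 for each), and Rab3 of synaptic vesicles had 0.23 ± 0.31 (SD, n = 3). As deposited these were 0.22 ± 0.42 for Gad1, -0.16 ± 0.26 for Sh and -0.26 ± 0.28 for Rab3. Of 7 glial genes, Gs2, a glutamine synthetase gene, was tested and had -0.035 ± 0.24 turned and -0.060 ± 0.23 as deposited (SD, n = 4). Of the head fat body, 3 of 13 genes were tested with 4 clones. As deposited, 1 of the 4 was called lower, where 0.777% of all tested clones were called in either direction: Obp99b at -0.79 ± 0.34 (SD, n = 3; limma adjusted p = 0.0483). Npc2a, also of this list, was above 0 on all 4 arrays in that reading, at 0.39 ± 0.16 (SD, n = 4; limma adjusted p = 0.190). With the dye coefficient Npc2a was called as deposited (limma adjusted p = 0.0343), where that fit called 5.73% of all tested clones. The clones of apolpp, the remaining gene, went the other way. They had -0.40 ± 0.13, below 0 on all 3 arrays (SD, n = 3; limma adjusted p = 0.244), and -0.095 ± 0.23 (SD, n = 4; limma adjusted p = 0.775). Of 13 genes of antenna and odorant-binding proteins, 5 were tested with 9 clones. As deposited, 3 of the 9 were called lower, 1 clone each of Obp56g at -1.08 ± 0.49 (SD, n = 4; limma adjusted p = 0.00582), Obp56h at -1.30 ± 0.78 (SD, n = 3; limma adjusted p = 0.0199) and Obp59a at -0.79 ± 0.25 (SD, n = 3; limma adjusted p = 0.0342). Another 3 of the 9 had a mean above 0, namely the clones of Obp56d at 0.36 ± 0.28 and 0.17 ± 0.071 (SD, n = 4) and Obp19d at 0.15 ± 0.19 (SD, n = 3). The other Obp56g clone had -0.10 ± 0.20 (SD, n = 4). The other clones of Obp56h and Obp59a had -0.47 ± 0.47 and -0.50 ± 0.77 (SD, n = 3 for each), each with 1 array above 0. That Obp56h clone was called as deposited with the dye coefficient (limma adjusted p = 0.0221). In the turned reading 0 clones of these lists were called, and the clones called as deposited had 0.52 ± 0.80 for Obp99b, 0.88 ± 1.41 for Obp56h, 0.41 ± 0.86 for Obp59a (SD, n = 3 for each) and -0.19 ± 1.32 for Obp56g (SD, n = 4). Npc2a then had -0.12 ± 0.46 (SD, n = 4), and the clones of apolpp had 0.23 ± 0.42 (SD, n = 3) and 0.011 ± 0.26 (SD, n = 4). In the same reading the other Obp56h clone had -0.011 ± 0.75 (SD, n = 3). The other Obp59a clone had 0.71 ± 0.48, above 0 on all 3 arrays (SD, n = 3; limma adjusted p = 0.361). With the dye coefficient that Obp59a clone was called (limma adjusted p = 0.0090), where that fit called 3.11% of all tested clones. As the clone has only 3 values, this call rests mostly on the spread pooled over all clones. The Obp59a clone called as deposited was not called by that fit in the turned reading (limma adjusted p = 0.630). The part of these tissues in the members' ratios was not tested. The files hold ratios and no intensities, so the levels of head or eye markers could not be checked.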

How the data were processed

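RNA from heads of NaVP-fed and control males was hybridised to 4 two-colour cDNA arrays, 2 per dye orientation. The deposited values are normalised log ratios of spots, read as log2. The series' design text says that the authors quantified the slides in GenePix Pro 6.0, normalised the ratios in Acuity 4.0 and filtered spots on intensity, saturation, flags, uniformity and signal-to-noise, all of which decide which genes have a value. No intensities were used here, so signal over background cannot be given, and the number of arrays limits precision.

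Adjacent spots were averaged (13824 clones) and each array was centred on its median, which removes any change shared by most clones. Clones on at least 3 arrays were tested with limma 3.58.1 in R 4.3.3 (intercept only, two-sided, Benjamini-Hochberg over 1030 clones), under each reading, after a check on simulated clones. Symbols were updated by NCBI gene ID to the RefSeq table of Release 6; no coordinates or sequences are printed. Named are all member clones, tested genes of the cascade and of the other lists, and the 3 clones nearest each member on all 4 arrays. For each other list the plan was to name the 2 genes of smallest p in each reading. The remaining tested genes of these lists were named as well. Members and lists were chosen with earlier results of these data known. The design text calls the arrays biological replicates of separate pools.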

Additional observations from a re-analysis of the deposited data

Results flagged for a closer look

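Among the 40 sets of 4 values examined for a sample far from the others (member clones and clones of the other lists, each under both readings), no member was singled out. A clone of Obp56g, an odorant-binding protein gene of the antenna list, was, because its value on array 1 (-0.40) stood apart from those on the other arrays: the gap made up 0.908 of the whole range in the turned reading and 0.863 as deposited. Chance gives about 1 such case in 20.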

How the results depend on the processing

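No paired analysis was possible because the arrays form 1 group, each array already setting a treated pool against a control pool. Under the 12 other settings tried, members were called in 1, the fit without centring as deposited. That fit tests the array offset, which shifts clones on 4 arrays by 0.71 (0.32 with the swap arrays turned), and it called 8 of 9 members and 745 of 1030 clones (72.3%), 14 of them in the lists of other genes, with 8 members at an unadjusted p under 0.05. It gave 1.05 for trpl, 1.03 for Arr1, 0.86 for chp, 0.85 for rtp, 0.83 for inaD and 0.77 for inaC, and turned the direction of the Galphaq clones (0.67 and 0.41) and rdgC (0.74). With the swap arrays turned it put 9 member clones above 0, reversing the second Galphaq clone (0.29), trpl (0.18), rdgC (0.49) and chp (0.18). In that reading 0 of all clones were called (limma) without centring, and also with clones on at least 2 arrays and on all 4. Block centring reversed the first Galphaq clone turned (-0.026) and inaD (-0.030) and rdgC (0.067) as deposited. The dye coefficient reversed rdgC as deposited (0.0078), and leaving out discordant duplicates reversed Arr1 turned (-0.012). Centring on the clones of all 4 arrays, chosen after seeing the data, left 3 members above 0 turned, with the first Galphaq clone at -0.0088 and inaC at -0.023, and inaC at -0.030 as deposited, where 1 member had an unadjusted p under 0.05. Why these reversals occur was not tested.

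Clones called of all tested, 1 turned and 8 as deposited, moved to 32 and 59 with the dye coefficient, 2 and 19 with block centring, and as deposited to 24 on at least 2 arrays, 1 on all 4, 4 without discordant duplicates and 3 over gene means. In the lists of other genes, 4 clones called as deposited became 6 with the dye coefficient and 5 with block centring. They became 1 on all 4 arrays, 2 without discordant duplicates and 0 over gene means. Turned, 0 became 1 with the dye coefficient. Leaving out 1 array called 0 members throughout. It gave 0 to 1 members turned and 1 to 2 as deposited at an unadjusted p under 0.05, 2 to 5 and 5 to 6 members above 0, 0 to 14 and 4 to 31 clones called, and 0 to 4 and 1 to 5 in the lists. Turned, the means ranged from -0.055 to 0.075 for the first Galphaq clone, -0.50 to -0.20 for the second, 0.028 to 0.15 for inaD, -0.12 to 0.11 for inaC, -0.016 to 0.33 for Arr1, -0.043 to 0.16 for rtp and -0.29 to 0.092 for chp. As deposited they ranged from -0.095 to 0.034 for the first Galphaq clone, -0.048 to 0.16 for inaC, 0.21 to 0.44 for Arr1, -0.11 to 0.043 for rdgC, 0.033 to 0.19 for rtp and -0.084 to 0.29 for chp. The mean of trpl stayed between 0.28 and 0.42 as deposited and between -0.29 and -0.0051 turned.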
